A study of Saccharomyces cerevisiae with 24 samples.

Results

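The 15 nucleotides described here are the positions in the 5′ part of yeast 25S ribosomal RNA (rRNA) at which the sugar of the nucleotide is 2′-O-methylated. They were chosen by position from a list of known modified sites. They make up 15 of the 5475 rRNA positions in the deposited tables, 3396 of which belong to 25S. Each site is written with its base, the letter m and its 25S position, so that Am649 is a methylated adenosine at position 649. There are 6 A, 3 C, 4 G and 2 U sites, and a further 41 known 2′-O-methylated positions of the rRNAs are not described one by one.

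In yeast, box C/D small nucleolar RNAs (snoRNAs) pair with the rRNA and place the methyltransferase Nop1, the yeast fibrillarin, on a single nucleotide. A 2′-O-methyl group leaves the pairing face of the base intact, lies on the ribose, and protects the backbone against alkaline cleavage. In direct RNA sequencing the native strand passes through a nanopore, and a modified nucleotide can change the current read from the few bases around it and so the called bases. Base-call errors are thus an indirect reading of modification, and no library without 2′-O-methylation was used here for comparison.

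The study sequenced native rRNA of Saccharomyces cerevisiae BY4741, a haploid laboratory strain grown in rich medium, in 24 samples that form 12 groups of 2. The first experiment compared total RNA of untreated wild-type cells (WT) with that of strains in which the snoRNA gene for snR3, snR34 or snR36 was replaced by a kanMX4 cassette (snR3KO, snR34KO, snR36KO). The second compared sucrose gradient fractions 1 to 4 (F1 to F4) of untreated wild-type cells. The third compared untreated wild-type cells with wild-type cells given 1 mM hydrogen peroxide for 30 min, in total RNA (WTinput, H2O2input) and in pooled fractions 3-4, labelled translated (WTtranslated, H2O2translated). Cells of the gradient cultures received cycloheximide, a translation inhibitor, before harvest. The labels call the gradient cultures biological duplicates; nothing says the same of the strain libraries, for which p-values measure only the spread between these libraries. The deleted snoRNAs belong to the H/ACA class, which guides pseudouridylation, and none of them guides any of the 15 sites, so all 12 groups carry the guides of these sites.

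The sites fall into short clusters, several of which share a guide, and the sequences below show which bases surround them. Each stretch is the 25S reference of the deposited tables, 5′ to 3′, with 10 positions on each side and T for U. Capitals mark the 2′-O-methylated nucleotides. The guides are stated from general knowledge, and their genes were all found in the RefSeq gene table for assembly R64. The rRNA genes lie on chromosome XII; 25S positions are 1-based, and the deposited tables name no genome build.
Am649 and Cm650, guide U18, positions 639 to 660: gtcttgaaacACggaccaagga
Cm663, guide snR58, positions 653 to 673: accaaggagtCtaacgtctat
Gm805 (guide snR39b) and Am807 (guides snR39 and snR59), positions 795 to 817: gttgggacccGaAagatggtgaA
Am817, guide snR60, positions 807 to 827: AagatggtgaActatgcctga
Gm867, guide snR50, positions 857 to 877: gaggctcgtaGcggttctgAc
Am876, guide snR72, positions 866 to 886: aGcggttctgAcgtgcaaatc
Um898, guide snR40, positions 888 to 908: atcgtcgaatTtgggtatagG
Gm908, guide snR60, positions 898 to 918: TtgggtatagGggcgaaagac
Am1133, guide snR61, positions 1123 to 1143: tttggtaagcAgaactggcga
Cm1437, guide U24, positions 1427 to 1447: tagtgcagatCttggtggtag
Am1449 and Gm1450, guide U24, positions 1439 to 1460: tggtggtagtAGcaaatattca
Um1888, guide snR62, positions 1878 to 1898: gatagaataaTgtagataagg
Other listed modifications lie close to some of them: a 1-methyladenosine lies 4 positions before Am649, and a pseudouridine lies 9 positions before Am1133.

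Base-call errors were deposited for 20 libraries, 1 for each strain and 2 for each other group. They give, at each position, the share of covering reads with a mismatch, with an insertion or with a deletion, and the mean base quality, a score that is lower where the base caller was less certain. All 15 sites had at least 20 covering reads in all 20 libraries. Coverage at the sites ranged from 29 reads in F1 replicate 2 to 15035 reads in snR3KO replicate 1, and the lowest coverage of a site was 29 reads at Am649 and 76 at Um1888. F1 held 44 to 76 and 29 to 78 reads at the sites in its libraries, F4 replicate 1 held 73 to 108, and H2O2translated replicate 2 held 33 to 171. Values from these 4 libraries are therefore the least precise. Of 900 error shares at the sites, 26 were 0, and 21 of these came from those 4 libraries, where a count of 0 allows a share of up to 10.3%. Intervals and limits given here cover counting error only.

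As a background measured the same way, 2832 positions of 25S were taken that lie at least 6 positions from any of 113 listed modified sites (750 A, 561 C, 819 G and 702 U). A site was called beyond the background in a library when its error share was above the 95th percentile, or its quality below the 5th percentile, of the unmodified positions of its own base in that library. In more than 50% of the libraries, 12 of the 15 sites were beyond for insertion, 9 for base quality, 8 for mismatch and 2 for deletion. By the same rule 4.45% of the unmodified positions were beyond for insertion, 4.7% for base quality, 4.63% for mismatch and 4.8% for deletion. In all 20 libraries, 8 sites were beyond for insertion, 5 for base quality, 5 for mismatch and 1 for deletion. Taken separately, each of the 4 measures was beyond at Am817 in more than 50% of the libraries. These were 19 of 20 libraries for mismatch, 20 for insertion, 18 for base quality and only 11 for deletion. Gm867 was beyond in no library for any of the measures. The site counts are counts of positions and not of replicates, so no p-value goes with them.

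**Figure D1:**
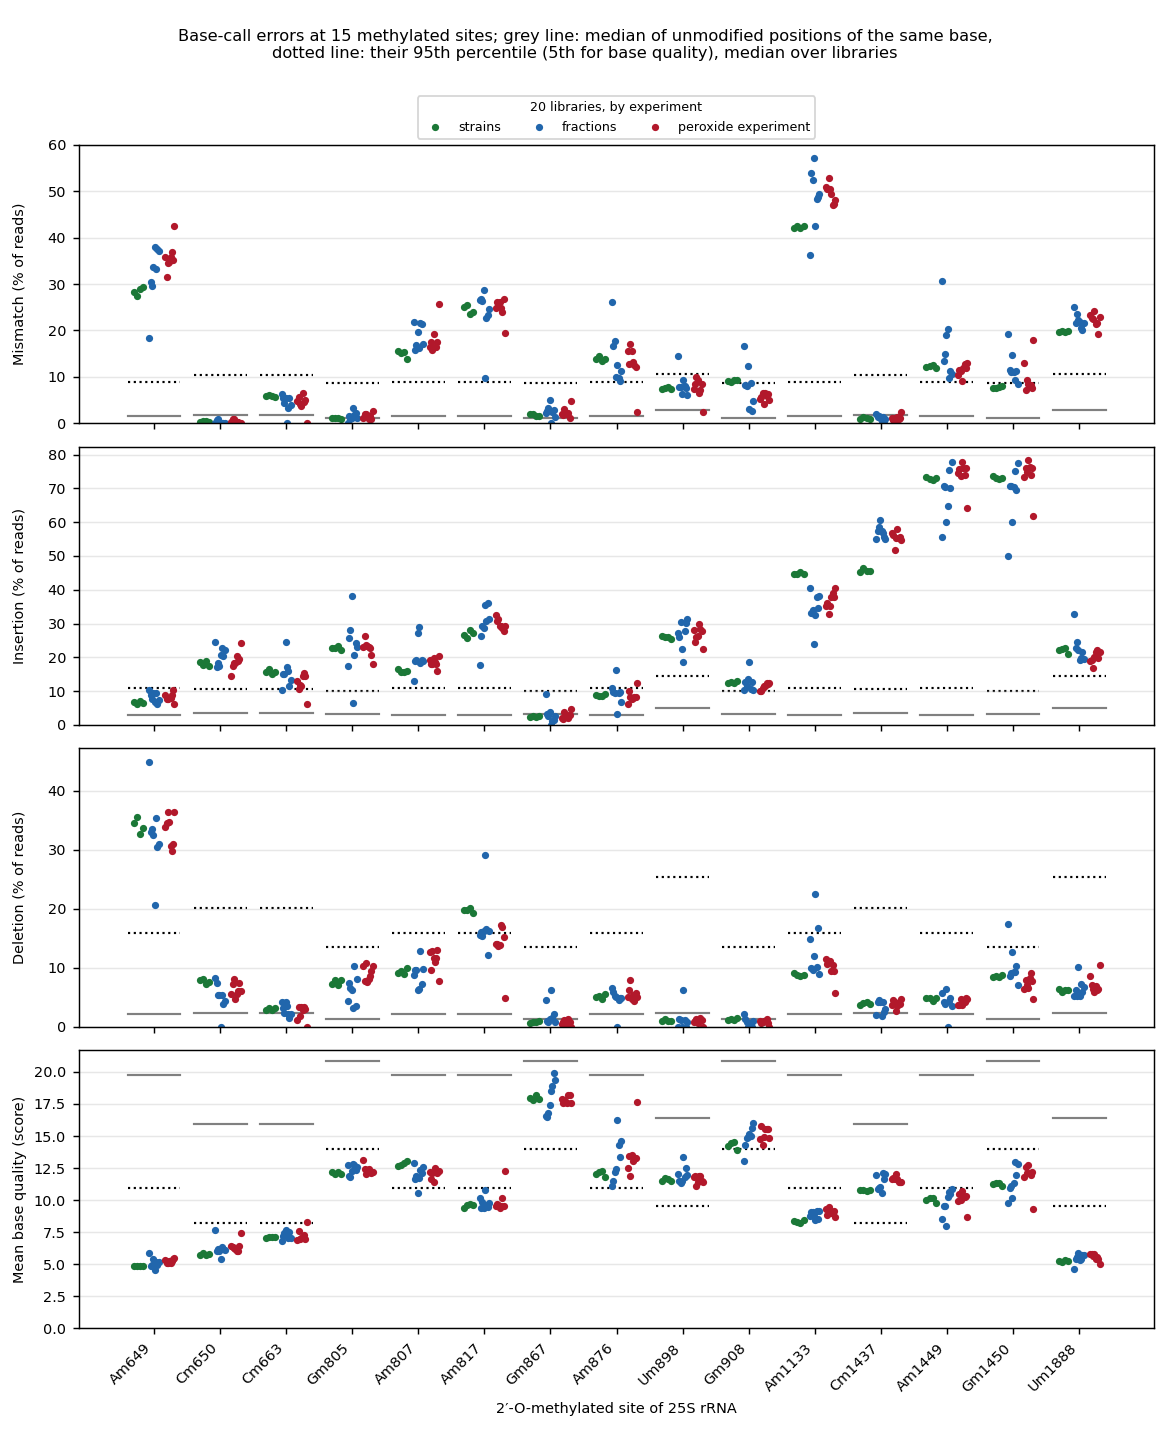
Mismatch, insertion and deletion (% of covering reads) and mean base quality (score) at the 15 sites, with 1 point per library for 20 libraries coloured by experiment. Grey lines give the median and dotted lines the 95th percentile (5th for base quality) of unmodified 25S positions of the same base, each as its median over libraries. Am1133 and Am649 stand highest in mismatch, Am1449 and Gm1450 in insertion and Am649 in deletion, while Gm867 stays near the grey lines.

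Each site had an error profile of its own that returned from library to library. The SD between site medians was 13.8 percentage points for mismatch, 22.4 for insertion and 8.24 for deletion, against a median SD between libraries at a site of 2.91, 3.64 and 1.48 points. For base quality these SDs were 3.55 and 0.531. Over the 15 sites, Spearman's rho between libraries had a median of 0.979 for mismatch, 0.982 for insertion, 0.957 for deletion and 0.961 for base quality across 190 pairs of libraries. The lowest rho was 0.683, 0.725, 0.202 and 0.820 in that order. These correlations describe 15 sites that share the reference, the guide set and the base caller, so they carry no test.

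The box C/D snoRNA U18 guides the neighbouring Am649 and Cm650, and their profiles differed. Am649 had the highest median deletion share and the lowest median base quality of the 15 sites. Its deletion share was 34.4% in snR3KO, 35.5% in snR34KO, 32.7% in snR36KO and 33.7% in WT. The F1 libraries had 44.9% and 20.7%, those of F2 33.0% and 35.3%, those of F3 33.5% and 30.5%, and those of F4 32.4% and 30.9%. In WTinput it was 33.8% and 30.7%, in H2O2input 34.4% and 29.7%, in WTtranslated 36.4% and 30.9%, and in H2O2translated 34.6% and 36.4%. Both extremes came from F1, where 49 and 29 reads give Wilson 95% intervals of 31.9 to 58.7% and 9.85 to 38.4%, which overlap. All other libraries lay between 29.7% and 36.4%.

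The mean base quality of Am649 was 4.83, 4.85, 4.88 and 4.86 in snR3KO, snR34KO, snR36KO and WT. The gradient gave 5.89 and 4.57 for F1, 4.88 and 5.20 for F2, 4.93 and 4.93 for F3, and 5.40 and 5.14 for F4. In the peroxide experiment it was 5.34 and 5.09 in WTinput, 5.06 and 5.22 in H2O2input, 5.10 and 5.37 in WTtranslated, and 5.22 and 5.48 in H2O2translated. No library came near the median of 19.8 over unmodified A positions. The mismatch share of Am649 was 34.1% at the median (18.4 to 42.4%), and its insertion share of 7.71% (6.06 to 10.5%) was beyond the background in 2 of 20 libraries. Cm650 had the lowest mismatch share of all 15 sites, 0.266% (0.0 to 0.958%), while its insertion share was 18.7% (14.5 to 24.5%) and beyond the background in all 20 libraries. Its deletion share was 6.07% (0.0 to 8.16%) and its base quality 6.16 (5.38 to 7.67). The lowest base quality in the windows of 3 positions on each side of this pair lay not at a 2′-O-methylated base but at A647, with a median of 4.37, in 17 of 20 libraries. In the window of Am649 the highest insertion share was at A646, with 33.9%, in 20 of 20. In the window of Cm650, which does not reach A646, it was at Cm650 itself in 16 of 20. A646 follows the listed 1-methyladenosine directly, and the part of that neighbour in the values at Am649 and Cm650 was not tested.

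The snR58 site Cm663 had a mismatch share of 5.20% (0.0 to 6.42%), an insertion share of 14.8% (6.06 to 24.7%), a deletion share of 2.86% (0.0 to 4.17%) and a base quality of 7.13 (6.83 to 8.30). Of the 7 positions in its window, Cm663 had the lowest quality in 20 of 20 libraries, but its errors were exceeded by those of the next nucleotide. U664 had a mismatch share of 19.2%, an insertion share of 31.9% and a deletion share of 18.7%, each the highest of the window in 20 of 20 libraries.

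Gm805, Am807 and Am817 lie within 13 positions of each other. Gm805, the target of snR39b, had a mismatch share of only 1.22% (0.0 to 3.23%) but an insertion share of 23.0% (6.45 to 38.3%), with 7.82% deletion (3.23 to 10.8%) and a base quality of 12.3 (11.8 to 13.1). Am807, which snR39 and snR59 both guide, had 16.7% mismatch (13.9 to 25.6%), 18.5% insertion (13.0 to 29.0%), 9.59% deletion (6.17 to 13.0%) and a base quality of 12.2 (10.6 to 13.0). The unlisted A806 between them had 33.9% mismatch, the highest of both windows in 20 of 20 libraries and above the median of any unmodified A position. The snR60 site Am817 had 24.99% mismatch (9.68 to 28.8%), 29.2% insertion (17.8 to 36.2%), 16.2% deletion (4.88 to 29.0%) and a base quality of 9.62 (9.37 to 12.3). Next to it, C818 held the highest deletion share, 27.5%, and the lowest quality, 6.84, in 19 of 20 libraries.

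Gm867 and Am876, the snR50 and snR72 sites 9 positions apart, had the lowest and a moderate error level among the sites. Gm867 had 2.04% mismatch (0.0 to 5.00%), 2.70% insertion (0.0 to 9.09%), 0.841% deletion (0.0 to 6.25%) and the highest base quality of the 15 sites, 17.8 (16.5 to 19.9), against medians of 1.24%, 3.18%, 1.28% and 20.9 over unmodified G positions. The summed share of the 3 error types at Gm867 was 5.58% (4.43 to 15.9%), the lowest of the sites. At G869 in the same window the mismatch share reached 20.1%, the highest of the window in 20 of 20 libraries. Am876 had 13.3% mismatch (2.50 to 26.1%), 8.77% insertion (3.12 to 16.2%), 5.03% deletion (0.0 to 7.82%) and a base quality of 12.8 (11.1 to 17.7). Its neighbour C877 had 42.9% mismatch (23.9 to 56.2%) and 20.4% deletion, the highest of the window in 19 and 20 of 20 libraries.

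Um898 and Gm908, guided by snR40 and snR60, both lie in runs of a repeated base. Um898 had 7.72% mismatch (2.50 to 14.6%), 26.3% insertion (18.8 to 31.4%), 1.01% deletion (0.0 to 6.25%) and a base quality of 11.7 (11.1 to 13.4). At U899, the next nucleotide, mismatch was 28.1%, insertion 31.4%, deletion 23.9% and quality 9.49, with the window's extreme in 20, 19, 20 and 20 libraries. Gm908 had 6.52% mismatch (2.70 to 16.7%), 12.2% insertion (10.1 to 18.8%), 0.902% deletion (0.0 to 2.08%) and a base quality of 14.9 (13.0 to 16.0). Its window held a deletion share of 59.5% (45.8 to 64.9%) at G910, the last G of the run, in 20 of 20 libraries.

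Am1133, the target of snR61, had the highest median mismatch share of the sites. It was 42.1% in snR3KO, 42.5% in snR34KO, 42.2% in snR36KO and 42.6% in WT. The F1 libraries had 36.2% and 42.5%, the F2 libraries 53.9% and 48.3%, the F3 libraries 52.4% and 48.9%, and the F4 libraries 57.1% and 49.5%. In WTinput it was 51.0% and 49.5%, in H2O2input 50.5% and 47.0%, in WTtranslated 53.0% and 47.4%, and in H2O2translated 50.5% and 48.1%. The strain libraries and those of F1 gave the 6 lowest values, and the 47 reads of F1 replicate 1 give a Wilson 95% interval of 24.0 to 50.5%. Every library lay far above the median of 1.61% over unmodified A positions. Am1133 also had 37.9% insertion (23.8 to 45.4%), 10.1% deletion (5.77 to 22.5%) and a base quality of 8.91 (8.24 to 9.45). Its 3 error shares summed to 96.5% (91.5 to 100.0%), more than at any other site; a read can count in more than 1 of them. The nearest pseudouridine lies outside its window, and within the window Am1133 itself held the highest mismatch and the lowest quality in 20 of 20 libraries.

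U24 guides Cm1437, Am1449 and Gm1450, which had the 3 highest insertion shares. At Am1449 the insertion share was 73.4% in snR3KO, 72.7% in snR34KO, 72.6% in snR36KO and 73.1% in WT. The gradient libraries had 55.8% and 64.8% (F1), 70.8% and 75.5% (F2), 70.5% and 70.2% (F3), and 60.0% and 77.8% (F4). In WTinput it was 74.5% and 75.9%, in H2O2input 75.6% and 73.8%, in WTtranslated 73.8% and 76.2%, and in H2O2translated 77.8% and 64.3%. The 4 values below 70% are those of the 4 libraries with the fewest reads, and the median over unmodified A positions was 2.93%. Gm1450 had a median insertion share of 73.3% (50.0 to 78.4%), as Am1449 had, and Cm1437 had 55.5% (45.4 to 60.6%).

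Mismatch was lower at these U24 sites, with 12.1% at Am1449 (9.03 to 30.8%), 8.95% at Gm1450 (7.18 to 19.2%) and 1.07% at Cm1437 (0.0 to 2.38%). Deletion shares were 4.32% (0.0 to 6.32%), 8.52% (4.76 to 17.3%) and 3.91% (1.85 to 4.76%), and base quality was 10.1 (8.00 to 10.9), 11.6 (9.31 to 13.0) and 11.4 (10.6 to 12.1), in the same order. Directly after Cm1437, U1438 had a mismatch share of 85.3% (79.8 to 92.2%) in contrast to 1.07% at the methylated C itself. U1438 was the highest of its window in 20 of 20 libraries and above the median of any unmodified U position. U1448, directly before Am1449, held the highest deletion share of that window, 30.1%, in 20 of 20 libraries.

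Um1888, the target of snR62 and the last of the sites, had 21.7% mismatch (19.2 to 25%), 21.5% insertion (16.9 to 32.9%), 6.28% deletion (5.13 to 10.5%) and a base quality of 5.43 (4.65 to 5.86), close to the lowest value at Am649. Its window held high error shares on both sides. U1890 had 79.7% mismatch (71.5 to 85.9%) and 40.1% insertion, A1887 had 20.1% deletion, and G1889 had the lowest quality, 5.03. U1890 and A1887 held their extremes in 20 of 20 libraries for mismatch and deletion. Neither U1438 nor U1890 is a listed modified site, and the tables used here do not say which base was called there.

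**Figure D2:**
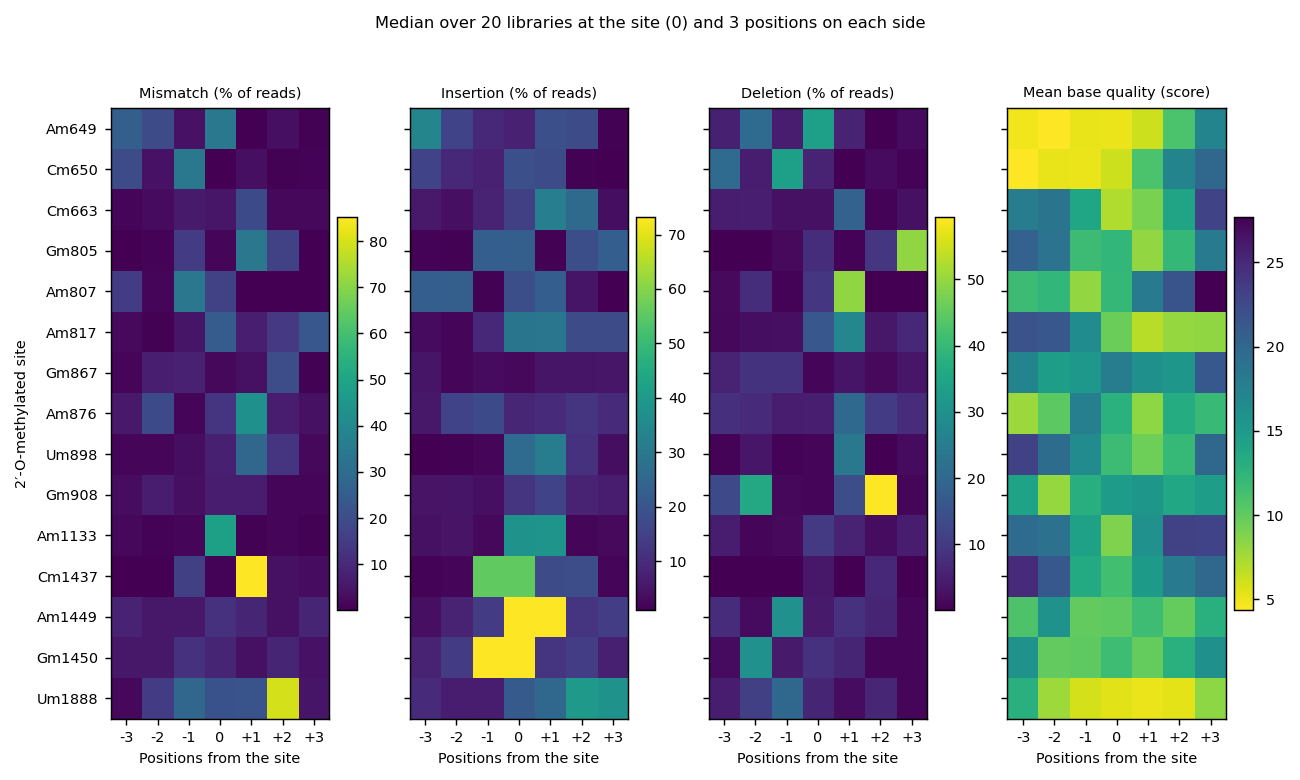
Median over 20 libraries of mismatch, insertion and deletion (% of reads) and mean base quality (score) at each of the 15 sites (0) and at 3 positions on each side. Bright cells mark many errors or low quality; the brightest mismatch cells lie 1 position after Cm1437 and 2 positions after Um1888, and the brightest insertion cells at Am1449 and Gm1450. Neighbouring sites appear in each other's rows.

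The extreme of a window often lay next to the methylated nucleotide rather than on it. The highest mismatch of the 7 positions lay at the site in more than 50% of libraries for 5 windows, and 1 position after it for another 5. For insertion the site held the extreme in 4 windows and the next position in 5, and for deletion these counts were 2 and 5. The lowest base quality lay at the site in 3 windows and at the next position in 4. Windows of neighbouring sites overlap, so they are not independent, and no windows of unmodified positions were counted for comparison. For insertion, the position after Am1449 is the methylated Gm1450, and both had 73.3%. A808 and U899, which held the highest deletion after Am807 and Um898, are last bases of runs of a repeated base.

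Base identity went with the kind of error. All 6 A sites and 1 of 2 U sites were beyond the mismatch background in more than 50% of libraries, together with Gm1450, while none of the 3 C sites was. The median mismatch share over the A sites was 20.9%, ranging from 12.1 to 48.6% by site, over the G sites 4.28% and over the C sites 1.07%. All 3 C sites were beyond for insertion, with medians of 14.8% to 55.5%. Insertion was the largest of the 3 error types at Cm650, Cm663, Gm805, Um898, Cm1437, Am1449 and Gm1450 in 20 of 20 libraries. Insertion was also the largest in the medians over unmodified positions, so this order is not particular to the sites. Those medians were 2.93% (A), 3.54% (C), 3.18% (G) and 4.89% (U). In the same order mismatch was 1.61, 1.77, 1.24 and 2.77% and deletion 2.15, 2.32, 1.28 and 2.36%. Mismatch was the largest at Am876 in 17 and at Am1133 in 15 libraries, and at Am649 mismatch and deletion were each the largest in 10. Deletion was the largest error at no other site in more than 1 library. With 2 to 6 sites per base, these are descriptions of the sites and not tests of the base.

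The insertion shares of neighbouring positions are not separate measurements. At each 25S position with neighbours on both sides, in each of the 20 libraries, the number of reads with an insertion was at most the sum of the numbers at the flanking positions. The total over even positions was 0.998 to 1.004 times that over odd positions. Both hold if an insertion between a pair of bases is counted at both bases. On that reading, the insertions at Am1449 and Gm1450 are mostly the same ones: at least 58.5% of reads at Am1449 (median over libraries) carried theirs between A1449 and G1450, out of 73.3% in all. For Am1133 at least 34.9% of reads carried an insertion between it and G1134. For Gm805 and Cm1437 the insertions lay mainly on the 5′ side, with at least 21.5% of reads between C804 and G805 and at least 37.1% between U1436 and C1437. Those of Am807 and Um898 lay mainly on the 3′ side, with at least 16.9% and 24.5% of reads. At Am649, Gm867 and Am876 the counts do not settle the side. Nor do they at Cm663, where the share placed on the 3′ side was over 50% in only 5 of 20 libraries.

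Am807 lies in a run of 3 A, Um898 in a run of 3 U and Gm908 in a run of 4 G, none of them at the last position of the run. In each of these runs the last base held the highest deletion share in 20 of 20 libraries. The same was true, in more than 50% of libraries, of 135 of the 138 unmodified 25S runs of 3 or more equal bases (97.8%). Deletion at the last base was 49.6% for the run of Am807, against a median of 7.70% and a highest value of 31.0% among 28 unmodified runs of 3 A. For Um898 it was 23.9%, within the range of 1.64 to 41.8% of 26 unmodified runs of 3 U (median 18.0%). For Gm908 it was 59.5%, within 8.49 to 64.3% of 12 unmodified runs of 4 G (median 28.4%).

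**Figure D3:**
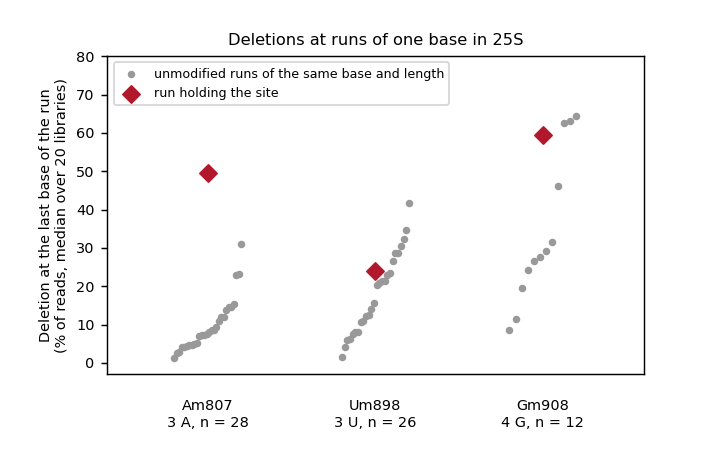
Deletion share at the last base (% of reads, median over 20 libraries) of the runs of equal bases that hold Am807, Um898 and Gm908 (red diamonds) and of unmodified 25S runs of the same base and length (grey points, sorted by value). The run of Am807, at 49.6%, lies above all 28 unmodified runs of 3 A, while the others lie within their grey ranges.

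Next to the other known 2′-O-methylated positions, the 15 sites had a median mismatch share of 8.95%, against 14.3% over 23 further sites of 25S and 7.75% over 18 sites of 18S. The median insertion share was 21.5%, against 13.6% and 22.5%, and the median deletion share 6.07%, against 5.12% and 2.80%. Median base quality was 11.4, against 9.30 and 10.8. These medians span wide and overlapping ranges, from 0.266 to 48.6% mismatch for the 15 sites and from 0.587 to 84.3% for the other 25S sites, and they were not tested.

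Ionic current was deposited for the 8 strain libraries, 2 for each strain, as the mean level in picoampere (pA) of each 5-mer, a stretch of 5 bases read together. The level of a 5-mer that covers a site was set against the mean level of the same 5-mer at unmodified places in the same library. Of the 64 5-mers that cover a site, 56 had at least 2 such places elsewhere and are counted here, 6 had 1 and 2 had no value to compare. The median absolute offset was 1.59 pA, compared with 1.18 pA for 3582 unmodified 5-mers treated likewise, whose 95th percentile was 4.58 pA. Beyond that percentile lay 13 of the 56 5-mers over the sites (23.2%). The largest offset was at Um1888, where the 5-mer from position 1885, with the methylated U at place 4, was lower by a median of 16.7 pA (offset -16.7 pA, from -19.6 to -6.84 pA). At Am1133 the 5-mer that starts with the methylated A had an offset of -15.0 pA (-26.8 to -14.4 pA). The levels of these 5-mers spread mainly in replicate 2. At Am1133 they were 114.5 to 115.0 pA in replicate 1 and 101.4 (WT) to 114.4 pA in replicate 2. At Um1888 they were 84.8 to 85.8 pA in replicate 1 and 89.7 to 95.4 pA in replicate 2.

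Smaller offsets were found for the leading 5-mers at Am1449 (-5.81 pA), Cm1437 (-5.57 pA), Am817 (-4.53 pA) and Gm1450 (-4.45 pA), all downward. The leading 5-mer of Gm1450, from position 1447, also covers Am1449, so its offset cannot be assigned to either site. At Am807 the leading offset was upward, 6.77 pA. At Gm867, which was not beyond the background in any base-call measure in more than 50% of libraries, it was 5.15 pA at the median but ranged from 0.426 to 6.72 pA over the libraries, with 2 other places to compare. The other 7 sites had leading offsets between -2.53 and 2.93 pA at the median. Among them, Am649 and Cm650 share their leading 5-mer, and that of Gm805 also covers Am807. Left out of these values are 5-mers with a single other place, among which the one from position 908 had an offset of -4.62 pA (-6.32 to -3.87 pA) at Gm908 and the one from position 802 had 4.21 pA (2.18 to 9.35 pA) at Gm805. In all 8 libraries, 15 of the 56 5-mers (26.8%) lay outside the range of the same 5-mer elsewhere, against 12.8% of the 3582 unmodified ones. With 2 other places, as at Am817, Gm867 and Cm1437, 31.9% of 543 unmodified 5-mers did so. Each leading 5-mer was the one of largest offset at its site, so its offset carries no test.

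**Figure D4:**
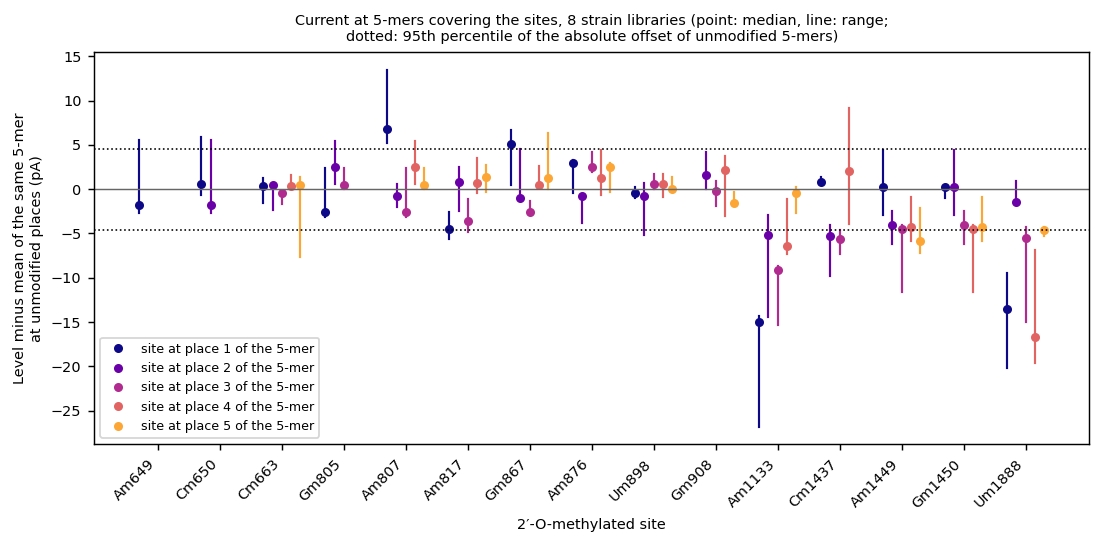
Current at the 5-mers that cover each site, as the level minus the mean level of the same 5-mer at unmodified places (pA), for the 8 strain libraries; points are medians and lines the range over libraries, coloured by the place of the site in the 5-mer. Dotted lines mark 4.58 pA above and below 0, the 95th percentile of the absolute offset of unmodified 5-mers. Um1888 and Am1133 reach -16.7 and -15.0 pA.

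Deleting the H/ACA guides snR3, snR34 or snR36 was followed by no called change at these sites, whose own guides were intact. In current, 0 of the 64 5-mers that cover a site were called for snR3KO, snR34KO or snR36KO against WT (limma, adjusted p under 0.05, 2 libraries per strain). Of all 5158 5-mers tested, 0.0% were called in each of the 3 comparisons. Before adjustment, p (limma) was under 0.05 for 18, 17 and 15 of all 5-mers and for 0 of those at the sites. That is far fewer than 5% of all 5-mers, so the test had little room to call a change anywhere. Its 0 calls therefore do not show that the sites were unchanged. The smallest adjusted p at the sites was 0.737, 0.930 and 0.709. Without WT replicate 1, which leaves a single WT library, 14, 12 and 13 of the 5-mers at the sites were called, among 1013, 703 and 1057 of all 5-mers. Base-call errors had 1 library per strain, so they have no replicate check and no test. Over the 4 strain libraries a site ranged by a median of 0.502 percentage points in mismatch, 0.945 in insertion and 0.546 in deletion, and by 0.245 in base quality. The widest ranges were 1.90 points of mismatch and 2.22 of insertion at Am817, 2.82 points of deletion at Am649 and 0.591 of base quality at Gm908.

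At a few sites the values of the 4 strain libraries did not overlap with those of the other experiments. At Cm1437 the insertion share was 45.4 to 46.5% in the 4 strain libraries and 51.9 to 60.6% in the other 16. At Am1133 it was 44.5 to 45.4% in the strains and 23.8 to 40.4% in the others. Against all 16 other libraries, the strain libraries were also lower in mismatch at Am807 and in base quality at Am1133. That makes 1 of 15 sites for mismatch, 2 for insertion, 0 for deletion and 1 for base quality, next to 3.2%, 3.49%, 4.02% and 4.84% of 5305 positions.

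Against the 8 libraries of the peroxide experiment alone, the strain libraries were lower in mismatch at Am649, Am807 and Am1133 and higher at Gm908, and higher in deletion at Am817 (19.2 to 20.1% against 4.88 to 17.3%). Their base quality was lower at Am649, Cm650, Am1133 and Cm1437 and higher at Am807. With the insertion shares of Cm1437 and Am1133, these are 4, 2, 1 and 5 of 15 sites in mismatch, insertion, deletion and base quality, while 16.0%, 17.6%, 15.0% and 27.1% of 5425 positions did not overlap. Against the 8 fraction libraries alone the counts were 3, 2, 0 and 1, next to 5.16%, 5.54%, 7.13% and 8.05% of 5305 positions, with mismatch lower at Am807, Gm1450 and Um1888. These counts describe 15 sites and carry no test. WT libraries are among both sets, and the experiments differ in culture and RNA preparation, so these effects cannot be told apart. No site separated the fractions from the peroxide experiment in any of the 4 measures.

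Fractions 1 to 4 of the gradient showed no called difference at the sites. Among the 4 fractions, with 2 libraries each, 0 of 15 sites were called in mismatch, insertion, deletion or base quality (quasi-binomial model for the error shares, limma for quality, adjusted p under 0.05). The background in 5305 tested positions was 0.0% for mismatch, insertion and deletion and 0.0189% for base quality. Before adjustment, p was under 0.05 at 2, 5, 1 and 0 of the sites and at 857, 885, 736 and 22 of all positions. For the 3 error shares this is more than 5% of positions with no adjusted call, so the unadjusted values should not be read singly. For base quality it is far fewer than 5%, which left that test little room to call a difference. The 0 calls therefore do not show that the sites were alike among the fractions. Without F4 replicate 1, or without F2 replicate 2, 2 sites were called for insertion, among 204 and 768 of all positions. The median over sites of the largest difference between group means was 4.52 percentage points for mismatch, 5.24 for insertion and 2.74 for deletion, and 0.772 for base quality.

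The largest fraction difference in mismatch was at Am1449, where F1 had 30.8% and 20.4%, F2 13.4% and 9.71%, F3 15.0% and 11.2%, and F4 18.9% and 10.7%. F1 exceeded F2 by 14.0 points between means (adjusted p = 0.322, quasi-binomial model), and its libraries were the highest of the 8. In insertion it was at Gm805, where F1 had 17.4% and 6.45%, F2 25.8% and 20.6%, F3 28.1% and 24.3%, and F4 38.3% and 23.1%. F4 exceeded F1 by 18.8 points between means (adjusted p = 0.488, quasi-binomial model), F4 replicate 1 stood above all others, and both F1 libraries below all others. In deletion it was at Am1133, where F1 had 14.9% and 22.5% and F2 10.0% and 10.1%, a difference of 8.62 points (adjusted p = 0.509, quasi-binomial model), while F3 had 9.68% and 16.7% and F4 11.9% and 8.87%. The largest quality difference was at Gm1450, with 9.79 and 11.4 in F1 and 11.0 and 13.0 in F2, which overlap, and 11.1, 12.0, 10.2 and 12.8 in F3 and F4.

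F1 had the widest spread between its replicates in mismatch and deletion, while in insertion F4 came close to it. The median absolute difference between the F1 libraries over the 15 sites was 6.25 percentage points for mismatch, 8.33 for insertion and 5.77 for deletion, against 2.08, 2.02 and 0.613 in F2. The F4 libraries differed by 8.11 points in insertion. F3 had a value of 1.36 there, and neither F3 nor F4 was above 3.01 in mismatch or 1.56 in deletion. F1 replicate 1 and F4 replicate 1 had medians of 4.17% and 3.51% mismatch over unmodified 25S positions, above the 1.38 to 2.43% of the other fraction libraries, and the part of this in the fraction differences was not tested.

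**Figure D5:**
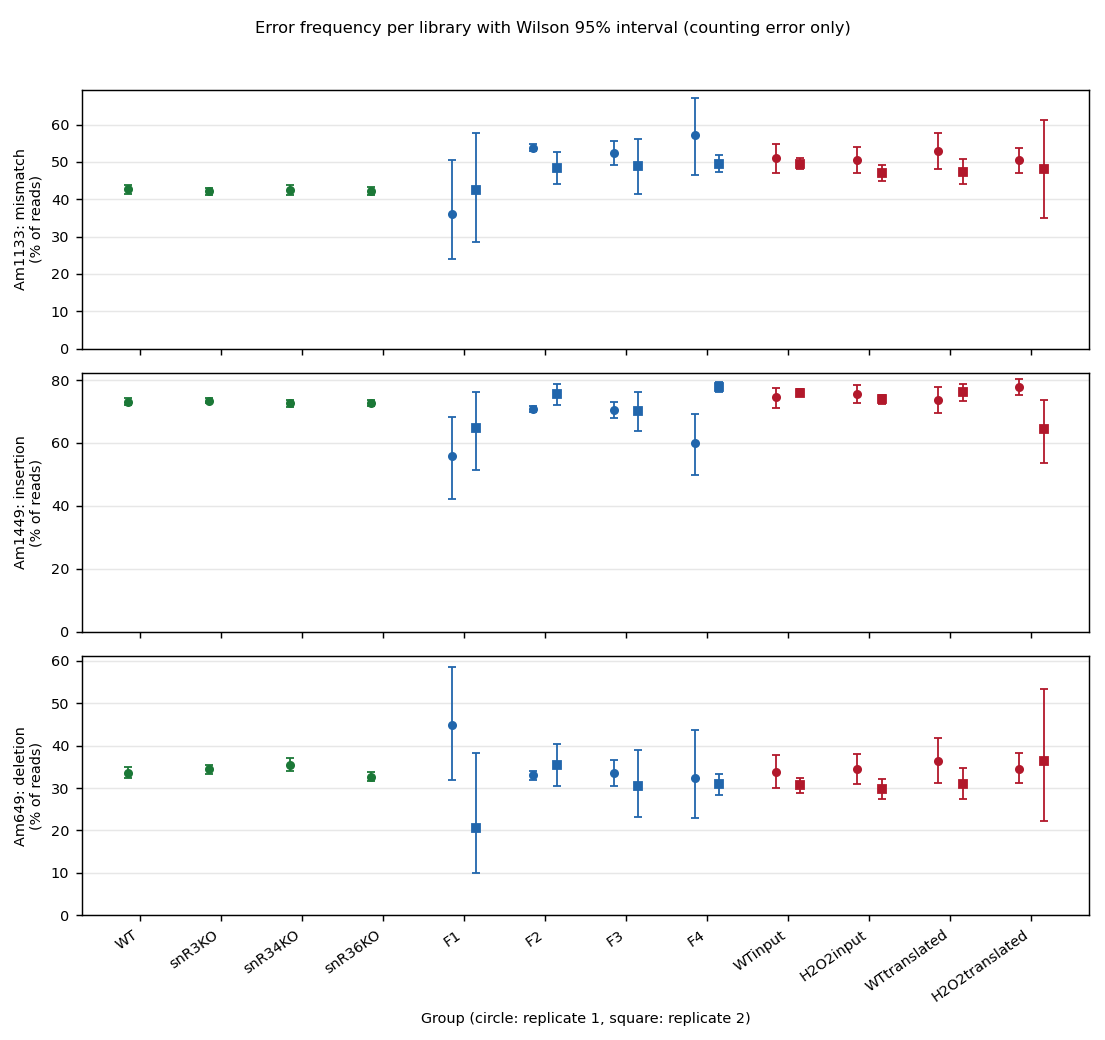
Mismatch at Am1133, insertion at Am1449 and deletion at Am649 (% of reads) in each of the 20 libraries, by group, with Wilson 95% intervals for counting error. Circles are replicate 1 and squares replicate 2. The widest intervals belong to F1, F4 replicate 1 and H2O2translated replicate 2, and the narrowest to the strains and F2 replicate 1.

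Exposure to 1 mM peroxide for 30 min left the sites without a called change in total RNA. In input, 0 of 15 sites were called in mismatch, insertion, deletion or base quality, and 0.0% of 5425 positions were called in each measure (quasi-binomial model or limma, adjusted p under 0.05, 2 libraries per group). The unadjusted p was under 0.05 at 1, 1, 0 and 0 of the sites and at 172, 155, 120 and 24 of all positions. In each measure this share of positions is below the 0.05 cut-off itself, so the tests had little room to call a change. Their 0 calls do not show that the sites were unchanged. The median absolute difference over the sites was 0.488 points for mismatch, 0.685 for insertion, 0.450 for deletion and 0.236 for base quality. The libraries of H2O2input and WTinput did not overlap at 4 sites for mismatch, 3 for insertion, 4 for deletion and 5 for base quality, against 28.8%, 26.0%, 24.6% and 20.9% of all positions.

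The largest input differences were small. Gm1450 had 7.18% and 8.15% mismatch in H2O2input and 12.9% and 8.23% in WTinput, a difference of -2.92 points (adjusted p = 0.998, quasi-binomial model) that came mainly from WTinput replicate 1. Um898 had 24.6% and 28.4% insertion in H2O2input and 28.0% and 29.8% in WTinput, which overlap. Cm663 had 3.37% and 3.41% deletion in H2O2input and 1.06% and 2.80% in WTinput, a difference of 1.46 points (adjusted p = 1.00, quasi-binomial model). Gm908 had a base quality of 15.8 and 15.5 in H2O2input and 14.8 and 15.5 in WTinput, higher by 0.513 after peroxide (adjusted p = 1.00, limma).

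In fractions 3-4, peroxide likewise gave 0 of 15 called sites in each measure, with 0.0% of 5425 positions called. Unadjusted p under 0.05 was reached by 1, 0, 1 and 1 of the sites in mismatch, insertion, deletion and base quality and by 156, 163, 153 and 76 of all positions. These shares too are below the 0.05 cut-off, so the 0 calls do not show that the sites were unchanged. The median absolute differences over the sites were 2.63, 2.36 and 1.74 points and 0.367 in quality. The groups did not overlap at 5, 3, 6 and 5 sites, against 25.4%, 26.9%, 24.4% and 14.3% of all positions. H2O2translated replicate 2, with 33 to 171 reads at the sites, set most of the largest differences. Am807 had 19.3% and 25.6% mismatch after peroxide and 15.9% and 17.5% without, a difference of 5.78 points. At Gm1450 insertion was 78.4% and 61.9% after peroxide and 74.9% and 76.1% without, and at Am817 deletion was 13.8% and 4.88% against 13.6% and 15.2%. At each of these sites both libraries of the untreated group lay close together and replicate 2 of the treated group stood apart.

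Am876 had the largest difference in base quality, 13.5 and 17.7 in H2O2translated against 11.9 and 13.3 in WTtranslated, higher by 3.01 (adjusted p = 0.997, limma). Without H2O2translated replicate 1, 6 sites were called in base quality, among 1475 of all positions, and 3 for the difference between the peroxide effects, among 216. The difference between the peroxide effects in fractions 3-4 and in input was called at 0 of 15 sites in each measure, with 0.0% of 5425 positions called, and its largest values were 7.64 points of mismatch and -5.53 of insertion at Gm1450, -4.84 points of deletion at Am817 and 2.52 of quality at Am876. Unadjusted p under 0.05 was reached there by 0, 0, 1 and 0 of the sites and by 140, 158, 142 and 26 of all positions. With shares below the 0.05 cut-off, the 0 calls do not show that the peroxide effects were equal.

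Untreated fractions 3-4 were also set against untreated input. Of the 15 sites, 0 were called in any measure, and 0.0% of 5425 positions were called in each. Unadjusted p under 0.05 was reached by 0, 1, 1 and 0 of the sites and by 113, 125, 79 and 11 of all positions. Here as well the shares are below the 0.05 cut-off, and the 0 calls do not show that the sites were alike. Um898 had 9.92% and 8.45% mismatch in WTtranslated and 7.48% and 6.59% in WTinput, a difference of 2.15 points (adjusted p = 0.999, quasi-binomial model). Cm1437 had 51.9% and 55.7% insertion against 56.9% and 58.0%, a difference of -3.64 points, and Cm650 had 7.99% and 7.48% deletion against 5.56% and 5.60%, a difference of 2.15 points. In base quality Gm805 was lower by 0.676 on average, at 12.0 and 12.1 against 13.1 and 12.4. At each of these 4 sites the groups did not overlap.

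Over all sites, WTtranslated and WTinput did not overlap at 3 sites for mismatch, 4 for insertion, 9 for deletion and 6 for base quality. The shares over all positions were 30.1%, 29.0%, 27.9% and 19.2%. The labels list the input RNA with the kit extraction and the fractions with the gradient protocol, so fraction and extraction cannot be told apart in this comparison. The protocol text also mentions part of the lysate being set aside in Trizol for total RNA and breaks off as given, so how the input RNA was prepared is not fully known. The peroxide comparison in fractions 3-4 shares its untreated libraries with it.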

How the data were processed

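Native rRNA was read by nanopore direct RNA sequencing. Per the file headers and names, the authors deposited EpiNano tables of 20 libraries with the coverage as a read count, the fraction of reads with a mismatch, an insertion or a deletion, and the mean base quality as a score for each position. The authors also deposited the mean current signal per 5-mer, by Nanopolish, for 8 strain libraries. The base caller and the aligner were not given in the sources used here.

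Fractions times coverage gave whole reads for 100.0% of values (tolerance 0.001), and these reads were tested with a quasi-binomial logistic model whose dispersion was moderated with limma 3.58.1 (R 4.3.3) and floored at 1. Base quality and current were tested with limma. Positions needed 20 reads in each library of a fit, and p-values were adjusted (Benjamini-Hochberg) over all positions or 5-mers of the 4 rRNAs. Deposited 5-mer positions count from 0, and 1 was added. The test was run on simulated data. The 113 modified sites (56 2′-O-methylated, 45 pseudouridines, 12 base modifications) and the guides were listed by hand from general knowledge, and the reference base matched at all 113. Sites and lists were chosen with earlier results of these data known. All 15 sites are named; values for each library are given for the extremes over sites and the largest difference of each comparison, and flanking positions where they held a window's extreme in more than 50% of libraries. Coverage at the sites was 29 to 15035 reads, and Wilson 95% intervals cover counting error only.

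Replicate numbers are shared between groups, but the labels do not say that a number marks a shared culture, so no block was used. Alternatives covered the coverage minimum, the percentile and distance that define the background, a replicate block and each library left out.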

Additional observations from a re-analysis of the deposited data

How the results depend on the processing

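Of 293 alternative settings over 27 results, 282 left the count of called sites or 5-mers within 1.5 times the reported one, and 11 did not. The background comparison was stable for mismatch, at 8 sites in each of its 6 alternatives, and for insertion, at 12 sites. For deletion the count fell from 2 sites to 1 with unmodified positions of all 4 rRNAs, with a distance of at least 11 positions from listed sites, in the fraction libraries alone and in the peroxide libraries alone; Am817, beyond in 11 of 20 libraries, lies near the limit. For base quality it went from 9 to 6 sites with unmodified positions of all 4 rRNAs.

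With each library left out in turn, the insertion calls among fractions ranged from 0 to 2 sites; 2 were called without F4 replicate 1 or without F2 replicate 2, with 204 and 768 of all 5305 positions. Base-quality calls at the sites for peroxide in fractions 3-4, and for the difference between peroxide effects, appeared only without H2O2translated replicate 1. That leaves a single library as its group, the one of lowest depth in the peroxide experiment. The current calls ranged from 0 to 14 5-mers for snR3KO, 0 to 12 for snR34KO and 0 to 13 for snR36KO, with calls only without WT replicate 1 (1013, 703 and 1057 of all 5158 5-mers). In these fits a lone library was assumed to vary like the other groups, and the sites were called together with many other positions; the cause was not tested. A minimum of 50 reads left 4 of the 15 sites for testing among the fractions.

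With the replicate number as a block (replicate block), 0 sites or 5-mers were called in each comparison, and the calls over all positions for base quality among fractions went from 1 to 17. Same-numbered libraries correlated in their deviations from the group means by 0.104 to 0.282 for mismatch among fractions and by -0.0244 to 0.150 in the peroxide experiment, by 0.337 to 0.580 and 0.0607 to 0.590 for base quality in the same order, and by 0.146 to 0.519 for current. With 29 to 108 reads in F1 and in F4 replicate 1, counting error alone is wide there, and the smallest detectable difference was not determined.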
